A study of Mus musculus with 32 samples.

Results

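The proteasome is the protease that removes most ubiquitin-tagged proteins, and the genes described here code for its subunits, its activators and inhibitor, and the chaperones that help assemble it. They were taken as the protein-coding genes whose symbols run Psma, Psmb, Psmc, Psmd, Psme, Psmf or Psmg followed by a number, with at least 10 counts summed over all libraries and without the 3 immunoproteasome subunits Psmb8, Psmb9 and Psmb10. This gave 46 of the 56953 genes in the count table, and all 46 passed the filter on low counts. Of them 8 code for alpha subunits and 7 for beta subunits of the 20S core, 6 for ATPases and 11 for other subunits of the 19S cap, 5 for activators or the inhibitor and 7 for assembly factors. The symbol rule also took in Psmc3ip, a recombination factor of meiosis that is no part of the proteasome, and Psme2b, an intronless copy of Psme2. A further gene, Psmb11, the thymus-specific beta subunit, had fewer than 10 counts.

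The 20S core is a barrel of 4 stacked rings, in which outer alpha rings gate the entry and inner beta rings carry the cutting sites. The 19S cap binds ubiquitin chains, and its ring of ATPases unfolds substrates and feeds them into the core, which together make the 26S proteasome. Activators such as PA28 dock on the core in place of the cap. In macrophages interferon-gamma is known to induce the immunoproteasome subunits and PA28, while the transcription factor NRF1, encoded by Nfe2l1, is known to raise the constitutive subunits together when proteasome capacity falls short.

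Messenger RNA was sequenced from mouse bone marrow-derived macrophages, grown from femur and tibia marrow of 8- to 12-week-old mice with L929 supernatant as a source of M-CSF, on the C57BL/6J background. Wild type (WT) and Acod1 knockout (KO) cells were each left untreated (control) or given 100 nM dexamethasone, a synthetic glucocorticoid, 100 ng LPS with no volume stated, or both, for 24 h. Acod1, also called Irg1, codes for the enzyme that makes itaconate. Each of the 8 groups had 4 libraries, 32 in all, and the labels leave unsaid whether replicates were separate mice. The p-values therefore reflect library-to-library spread alone, which can be technical. A C57BL/6J mouse source and Irg1-/- and Irg1+/+ mice are both named, and the labels do not say which WT libraries came from which.

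Library totals ran from 17559079 to 25049200 read pairs. Acod1 reads were present under either label, at 6480 ± 249 CPM (counts scaled to library size, mean ± SD, n = 4) in WT and 4990 ± 133 CPM in KO with LPS. With dexamethasone plus LPS the order was the other way, with KO at 3930 ± 195 CPM above WT at 2740 ± 34.8 CPM (log2 difference 0.52 ± 0.041, edgeR adjusted p = 7.6e-16). Since the deleted part of the gene is not stated, reads over the whole gene cannot serve as a check of genotype, and WT and KO below name the labels. Macrophage markers summed to 14900 to 29900 CPM per library over 7 genes, while lists of other cell types summed to at most 25.8 CPM, for mast cell markers, of which Kit was the highest. Some of these lists moved with treatment: in WT the 4 mast cell markers summed to 15.6 ± 1.61 CPM in untreated cells, and to 1.47 ± 0.26 CPM (dexamethasone), 2.09 ± 0.437 CPM (LPS) and 0.26 ± 0.0505 CPM (the combination). The 4 dendritic cell markers, led by Flt3, went from 1.1 ± 0.241 to 16.5 ± 0.521 CPM with dexamethasone. The 7 neutrophil markers went from 0.244 ± 0.0796 to 4.63 ± 0.818 CPM with LPS and 12.8 ± 1.24 CPM with both (5.59 ± 0.352 in KO). In WT with both agents S100a8 alone held 9.99 to 13.3 CPM. Camp held 1.43 to 2.78 CPM with LPS and 0.303 to 1.11 CPM with both. The rest of the neutrophil list was at most 0.28 CPM in any library. The macrophage sum in WT was 25000 ± 891 CPM without treatment, 16100 ± 920 CPM after LPS and 29300 ± 430 CPM after the combination, for which KO gave 21000 ± 310 CPM. Lyz2 was its largest part, at 17400 to 19200 CPM in WT control, 6610 to 8150 CPM with LPS and 20600 to 21500 CPM with both. The list did not move together with LPS. Adgre1 held 1120 to 1140 CPM in WT control and 3840 to 4380 CPM with LPS. Itgam and Fcgr1 also rose, while Cd68 and Mertk fell. The part of these markers in the results was not tested. Cd3e, Mcpt4, Fcer1a and Hbb-bt had no count in any library. All WT libraries were sequenced in lane 3 and all KO libraries with LPS in lane 2, so in the groups with LPS genotype and lane cannot be told apart except through other libraries. The KO control libraries were in lane 3 or, for 1, from a merged file. Comparisons of KO with LPS or both agents against KO control therefore also cross lanes. Of the KO libraries with dexamethasone alone, 1 was in lane 2. Replicate 3 of WT with LPS stood apart in several members, and its values are given beside the results they touch.

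Promoter windows from RefSeq, on the build GRCm38.p6, were at hand for 38 of the 46 genes and covered 250 bases before to 50 bases after the start. The core of the antioxidant response element that NRF1 and NRF2 bind (TGACNNNGC, either strand) was found in 6 of the 38 genes, which is 15.8%, against 14% of all 27025 genes with a window and 12.4% of all 32851 windows. It lay in Psmb5, Psmb6, Psmc6, Psmd12, Psme4 and Psmd9, while the beta subunits Psmb1, Psmb2 and Psmb7 had no window. A core of the interferon-stimulated response element (GAAANNGAA, either strand) was in 7 of 38, or 18.4%, against 9.76% of all genes, and 1 of the 7 was Psme1. The gamma-activated site (TTCNNNGAA) was in 2 of 38, or 5.26%, against 9.55%, the CCAAT box (CCAAT, either strand) in 13, or 34.2%, against 41.1%, and the glucocorticoid response element core (ACANNNTGT) in 1, or 2.63%, against 7.9%. These are matches of letters and not tested sites. The 4 windows below, cut at 30 bases after the start, are shown because the largest differences among the catalytic and PA28 subunits lay in these genes. Psmb5 is at chr14:54617966-54618245 on the minus strand, Psmb6 at chr11:70525107-70525386 on the plus strand, Psme1 at chr14:55578244-55578523 on the plus strand and Psme2 at chr14:55591072-55591351 on the minus strand. Each is written 5′ to 3′ along the gene, and capitals mark the antioxidant core in Psmb5 and Psmb6, which begins 47 and 9 bases before the start, and the interferon core in Psme1, which begins 10 bases after it on the other strand. Psme2, which lies beside Psme1, had none of these motifs in either of its windows.
Psmb5: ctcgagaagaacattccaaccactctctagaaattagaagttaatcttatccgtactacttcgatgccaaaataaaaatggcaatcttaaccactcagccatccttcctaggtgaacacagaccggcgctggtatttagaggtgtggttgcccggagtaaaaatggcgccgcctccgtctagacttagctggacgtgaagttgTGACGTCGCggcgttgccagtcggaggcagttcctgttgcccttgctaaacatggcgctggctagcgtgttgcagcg
Psmb6: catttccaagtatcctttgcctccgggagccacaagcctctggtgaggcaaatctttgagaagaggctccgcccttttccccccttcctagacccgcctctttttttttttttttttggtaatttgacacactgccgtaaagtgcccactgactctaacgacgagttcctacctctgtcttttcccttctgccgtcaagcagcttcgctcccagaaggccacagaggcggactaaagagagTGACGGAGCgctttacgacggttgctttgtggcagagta
Psme1: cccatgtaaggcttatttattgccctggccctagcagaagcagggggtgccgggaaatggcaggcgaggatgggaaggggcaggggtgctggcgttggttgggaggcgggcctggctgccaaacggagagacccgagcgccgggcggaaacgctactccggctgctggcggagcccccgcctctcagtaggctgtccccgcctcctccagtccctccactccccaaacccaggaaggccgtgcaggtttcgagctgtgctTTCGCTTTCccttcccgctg
Psme2: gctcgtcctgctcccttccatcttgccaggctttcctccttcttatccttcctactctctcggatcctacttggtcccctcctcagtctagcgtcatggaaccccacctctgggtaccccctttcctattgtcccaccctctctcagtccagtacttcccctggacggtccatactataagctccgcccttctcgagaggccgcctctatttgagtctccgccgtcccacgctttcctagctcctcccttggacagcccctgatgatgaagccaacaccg

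The first comparison asked how the proteasome genes respond to LPS alone. LPS raised nearly all 26S subunit genes within the symbol rule, with 28 of 31 higher in WT (Psma8 not counted), 1 lower and 2 not called at an adjusted p under 0.05. Proteasome parts outside that rule are given further below. The summed level of these 31 genes was 2800 ± 57.1 CPM in WT control and 4360 ± 172 CPM with LPS, and the 4 libraries of each group did not overlap. Over all 46 members 35 were higher and 4 lower, with a median log2 change of 0.58, against a median of -0.02 for all 14427 genes tested. LPS moved much of the transcriptome, so that 75.7% of all genes were called and 37.4% were higher. In KO 33 members were higher and 5 lower, with a median of 0.51, where 76.1% of all genes were called and 36.8% were higher. This KO comparison also crosses lanes. With a lane term the members' median in KO was 0.51, and 8380 of 14667 genes were called, against 10997 in WT. The lane term rests on 1 KO library without LPS in lane 2. Without normalization the median of all genes in WT shifted to -0.28, the members' median was 0.32, and 32 rose and 10 fell; in KO 30 rose and 12 fell.

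**Figure D1:**
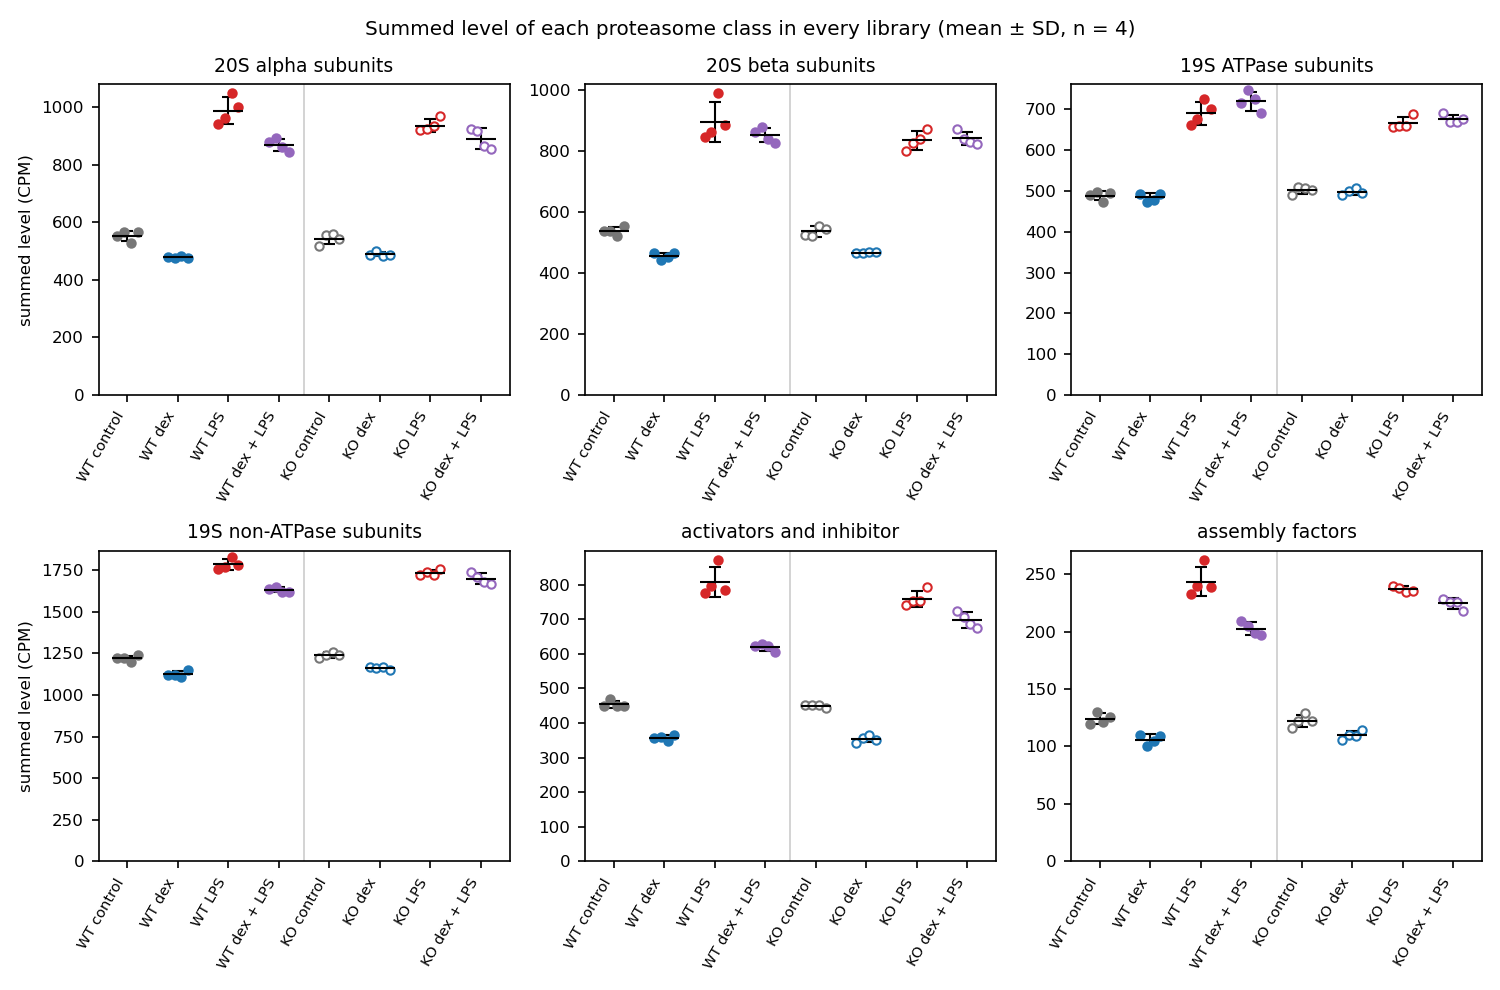
Summed level in CPM (y axis, from 0) of the genes of each class in every library of the 8 groups (x axis). Filled points are WT and open points KO libraries, and the bar and whiskers are the mean and SD of 4 libraries. The 20S alpha class went from 553 CPM in WT control to 988 CPM with LPS and the 19S ATPases from 488 to 690 CPM, and with dexamethasone added to LPS the activators and inhibitor averaged 620 (WT) and 699 (KO) CPM.

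Among the 20S alpha subunits, which form the gated outer rings, 7 of 8 rose with LPS in WT, where 37.4% of all genes were higher. The eighth, the testis form Psma8, was barely present at 1.04 ± 0.409 CPM in control and 0.643 ± 0.39 CPM with LPS. Psma6 (ENSMUSG00000021024, chromosome 12 from 55431007 to 55465239 on the plus strand in the table's annotation) changed most. Its 4 WT control libraries held 74.6, 71.8, 69.1 and 79.3 CPM and the LPS libraries 166, 162, 179 and 168 CPM. All LPS libraries were above all controls, a log2 fold change of 1.19 ± 0.041, adjusted p = 1.6e-30 (edgeR quasi-likelihood test, value ± SE). In KO the same gene went from 71.8 ± 3.17 to 159 ± 5.18 CPM, or 1.14 ± 0.041 on the log2 scale. Psma5 changed by 1.07 ± 0.053, Psma3 by 0.91 ± 0.043 and Psma1, the least changed of the 7, by 0.59 ± 0.04.

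Of the 20S beta subunits 6 of 7 rose with LPS in WT, where 37.4% of all genes were higher, and the 3 catalytic ones did so to different degrees. Psmb5, the chymotrypsin-like subunit, rose most (ENSMUSG00000022193, chromosome 14 from 54851576 to 54855479 on the minus strand). Its WT control libraries held 60.8, 58.6, 54.6 and 60.2 CPM and those with LPS 139, 150, 170 and 159 CPM, with no overlap (1.40 ± 0.046, adjusted p = 4.2e-31), and the KO change was 1.40 ± 0.046. Psmb6, the caspase-like subunit, went from 90.2, 90.8, 89.2 and 98.6 CPM to 197, 191, 245 and 195 CPM, where replicate 3 was far above the other 3 libraries (1.17 ± 0.052, adjusted p = 1e-25). Psmb7, the trypsin-like subunit, held 51.2, 55.9, 50.2 and 53.9 CPM in control and 90.6, 85.3, 83.8 and 91.3 CPM with LPS, a smaller rise of 0.73 ± 0.047, adjusted p = 2.6e-19. The exons of Psmb7 overlap those of Nek6 on the opposite strand, and counting did not use strand. Psmb1, a structural subunit, was not called and stood at 119 ± 2.3 and 124 ± 6.92 CPM. Per kilobase of annotated exon, Psmb5 had the highest level of the beta subunits in WT control, at 65.1 ± 3.12 CPM per kb, and Psmb7 the lowest, at 15.4 ± 0.764. With LPS they stood at 172 ± 14.5 and 25.7 ± 1.1. The ratio of the highest to the lowest beta subunit mean per kilobase thus went from 4.22 in control to 6.7 with LPS. The ranks rest on the annotated exon length, 899 bases for Psmb5 and 3421 for Psmb7, which need not be that of the expressed mRNA. Before division by length the control libraries of these genes overlapped.

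In the 19S cap 5 of 6 ATPases and 10 of 11 other subunits rose with LPS in WT, where 37.4% of all genes were higher. Psmc6 was the most changed ATPase, from 61.9, 62.1, 61.6 and 60.4 CPM in control to 120, 117, 118 and 121 CPM with LPS, and the 2 groups were far apart (0.95 ± 0.038, adjusted p = 1.3e-27). Psmc3 did not pass the test, at 104 ± 4.11 and 105 ± 6.36 CPM; its exons overlap those of Slc39a13 on the opposite strand. Psmd11, the subunit known to clamp the cap to the core, was the most changed of the others (ENSMUSG00000017428, chromosome 11 from 80319441 to 80364074 on the plus strand). It held 64.4, 64.6, 70 and 61 CPM in the control libraries and 155, 159, 158 and 154 CPM in the LPS libraries (1.27 ± 0.037, adjusted p = 1.9e-33). Psmd1, a large scaffold subunit, changed by 1.06 ± 0.036, Psmd7, the partner of the deubiquitinase, by 0.97 ± 0.044, and that deubiquitinase, Psmd14, by 0.59 ± 0.046. Psmd6 and Psmd12, subunits of the lid, changed little, by 0.10 ± 0.043 and 0.20 ± 0.043 in WT and 0.06 ± 0.043 and 0.03 ± 0.042 in KO, where neither was called. Psmd8 was the single 26S subunit within the symbol rule to fall, from 334 ± 8.18 to 298 ± 11.7 CPM in WT (-0.17 ± 0.031) and from 341 ± 7.91 to 275 ± 5.15 CPM in KO (-0.31 ± 0.031). In control it was the most abundant cap subunit per kilobase, at 109 ± 2.68 CPM per kb, and with LPS Psmd2, the other large scaffold subunit, held that place at 103 CPM per kb.

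The balance of cap to core mRNA was lower with LPS. The ratio of summed 19S to summed 20S counts was 1.57 ± 0.0182 in WT control, 1.32 ± 0.0455 with LPS, 1.62 ± 0.0228 in KO control and 1.36 ± 0.0257 in KO with LPS. In neither genotype did the control and LPS libraries overlap in this ratio, with a lowest control value of 1.55 in WT against a highest LPS value of 1.36. This is a description of sums over the listed genes and was not tested.

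All 5 activator or inhibitor genes rose with LPS in WT, where 37.4% of all genes were higher. Psme2, which codes for the beta subunit of PA28, changed by 1.70 on the log2 scale against 0.49 for its partner Psme1. Psme2 (ENSMUSG00000079197, chromosome 14 from 55824898 to 55828570 on the minus strand) held 109, 111, 103 and 104 CPM in WT control and 316, 332, 403 and 336 CPM with LPS, with replicate 3 the highest (1.70 ± 0.046, adjusted p = 6.7e-35). Psme1, the alpha subunit (ENSMUSG00000022216, chromosome 14 from 55815580 to 55818986 on the plus strand), held 136, 143, 133 and 134 CPM and 185, 187, 212 and 186 CPM (0.49 ± 0.039, adjusted p = 4.1e-16). Its exons overlap those of Emc9 on the opposite strand. The ratio of Psme2 to Psme1 counts was 0.781 ± 0.0161 in WT control and 1.8 ± 0.0782 with LPS, and 0.773 ± 0.0252 and 1.55 ± 0.0767 in KO. Psme3, the nuclear activator PA28 gamma, changed by 0.49 ± 0.045, Psme4, the activator PA200, by 0.20 ± 0.044 and Psmf1, the inhibitor PI31, by 0.46 ± 0.058. The copy Psme2b went the other way, from 23.6 ± 1.85 to 17.7 ± 2.37 CPM (-0.42 ± 0.08), although reads of near-identical copies may be split or dropped and its exons overlap another gene on the same strand.

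Of the 7 assembly factors 2 rose and 1 fell with LPS in WT, where 37.4% of all genes were higher and 38.3% lower. Psmd10, also called gankyrin, and Psmd5, chaperones of the 19S ATPase ring, were the 2 that rose, and the third such chaperone, Psmd9, was not called (0.05 ± 0.068). Psmd10 (ENSMUSG00000031429, chromosome X from 139849178 to 139857477 on the minus strand) held 22.4, 23.3, 21.3 and 22.7 CPM in control and 87.1, 88.3, 101 and 85.4 CPM with LPS, the largest rise of the 46 genes (2.01 ± 0.059, adjusted p = 1.7e-33), and in KO it changed by 2.02 ± 0.058. Psmd5 went from 35.8, 39.3, 34.6 and 35.9 CPM to 86.6, 90.1, 87.2 and 89.8 CPM (1.28 ± 0.046, adjusted p = 1.4e-29). By contrast the chaperones of the 20S alpha ring, Psmg1 to Psmg4, stayed at 5.57 to 12.9 CPM in WT control and 6.50 to 11.8 CPM with LPS. Among these, Psmg2 fell by 0.37 ± 0.1 on the log2 scale in WT, where Psmg1, Psmg3 and Psmg4 were not called (0.15 ± 0.11, 0.22 ± 0.11 and -0.13 ± 0.079). The meiotic gene Psmc3ip fell from 2.26 ± 0.382 to 0.511 ± 0.236 CPM, a low level throughout.

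**Figure D2:**
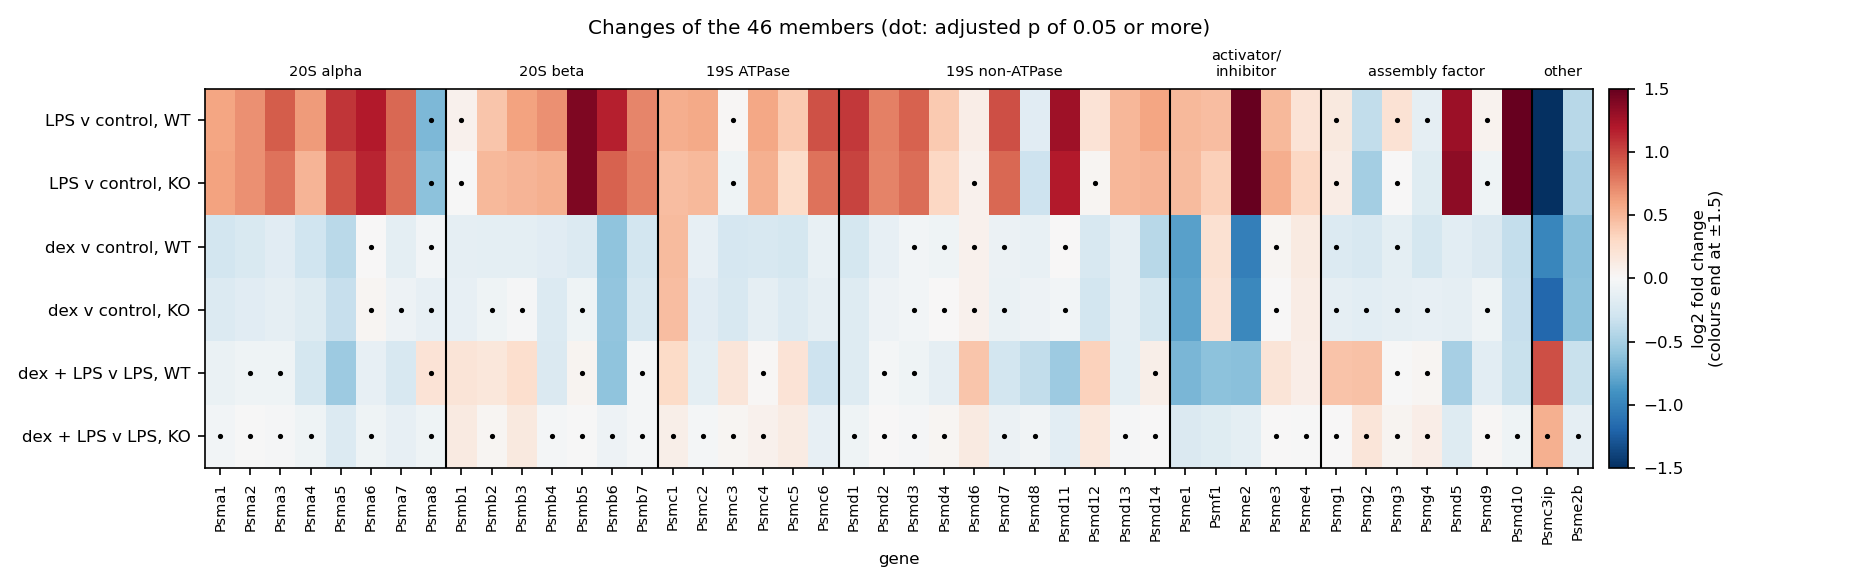
Log2 fold changes (colour, ends of the scale at ±1.5) of all 46 members (x axis, grouped by class) in 6 comparisons (y axis, 4 libraries a group); a dot marks an adjusted p of 0.05 or more. The 2 LPS rows are mostly red with Psmd10 and Psme2 deepest, the 2 dexamethasone rows mostly pale blue, and the lowest row, dexamethasone under LPS in KO, carries the most dots with 13 members called.

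The second comparison asked what dexamethasone does in cells without LPS. It lowered most of the proteasome genes by a small amount, with 33 members lower and 3 higher in WT and a median log2 change of -0.17, where 49.4% of all genes were called and 28.2% were lower. In KO 26 were lower and 3 higher, with a median of -0.13, where 48.5% of all genes were called and 27.6% were lower. The summed 26S level was 2540 ± 33 CPM in WT against 2800 ± 57.1 CPM in control, and the libraries did not overlap. A difference between the genotypes in this effect was called for no member. By edgeR and by DESeq2 0 of 46 were called, and 2 had an unadjusted p under 0.05 in edgeR; of all genes 0.00% were called.

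Among the proteasome genes Psme2 and Psme1 fell most in WT, although the low meiotic gene Psmc3ip changed by -0.98. Psme2 held 52.4, 52.6, 52.4 and 53.6 CPM in the 4 WT libraries with dexamethasone (-1.02 ± 0.05, adjusted p = 3.4e-23), and Psme1 held 77.4, 80.6, 76.4 and 76.9 CPM (-0.81 ± 0.041, adjusted p = 8.2e-23). All these values were below every control library, and KO gave -0.97 ± 0.05 and -0.79 ± 0.041. Psmb6 fell from 90.2, 90.8, 89.2 and 98.6 CPM to 60.6, 57.9, 61.2 and 63.4 CPM (-0.60 ± 0.055, adjusted p = 2.8e-13) and was the subunit of the core that fell most, against -0.21 ± 0.049 for Psmb5 and -0.28 ± 0.05 for Psmb7. Psma5 changed by -0.40 ± 0.056 and Psmd14 by -0.42 ± 0.048. Psmc1, an ATPase of the cap, went against the rest, from 113 ± 8 to 156 ± 4.51 CPM (0.48 ± 0.04, adjusted p = 1.8e-14) and by 0.46 ± 0.04 in KO. Psmf1 and Psme4 also rose, by 0.23 ± 0.058 and 0.13 ± 0.044. Psma6 and Psmd11, which rose strongly with LPS, stood at 73.9 ± 1.72 and 65.2 ± 2.74 CPM and were not called. The ratio of 19S to 20S sums was 1.72 ± 0.0254 in WT with dexamethasone, above all control libraries, whose highest value was 1.59. Levels are scaled to library size, and a smaller share of expressing cells and less RNA per cell cannot be told apart in such bulk libraries.

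The third comparison asked how dexamethasone acts on cells given LPS, the setting in which glucocorticoids are used against inflammation. Of the 31 genes of the 26S proteasome within the symbol rule, 30 were above control in WT with dexamethasone plus LPS and 1, Psmd8, was below. In KO 29 of these genes were above and 1 below. Against control 36 of the 46 members rose and 5 fell in WT, where 72.3% of all genes were called, 34.5% higher and 37.8% lower. In KO, again across lanes, 36 rose and 4 fell, where 74.0% of all genes were called, 37.5% higher and 36.5% lower. The summed 26S level was 4070 ± 81.9 CPM in WT with both agents, against 4360 ± 172 CPM with LPS alone. Against LPS alone, 13 members were higher and 22 lower in WT, with a median of -0.07, where 69.2% of all genes were called, 34.6% higher and 34.5% lower. Without normalization, which shifted the median of all genes to 0.10, the members' median was 0.03 and the split 17 higher and 16 lower. The difference from the dexamethasone effect without LPS was called for 29 members in WT, 21 of them shifted upward and 8 downward, where 60.4% of all genes were called. In KO it was called for 22 members, 19 upward and 3 downward. Of all genes 41.8% were called there, 25.7% upward and 16.2% downward. RLE size factors gave 13 and 4 members in KO, beside 3349 of all genes upward and 2701 downward.

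The members that dexamethasone lowered under LPS in WT included the PA28 pair. Psme1 held 117, 124, 116 and 124 CPM with both agents, below every control library, and changed by -0.68 ± 0.039, adjusted p = 6.4e-21 against LPS alone. Psme2 held 231, 229, 222 and 214 CPM (-0.63 ± 0.044, adjusted p = 5.8e-18), which was below every library with LPS and above every control library. Psmf1, the inhibitor, went from 40.4 ± 2.56 to 26.3 ± 1.74 CPM (-0.62 ± 0.058), although dexamethasone without LPS had raised it, and the difference of these 2 effects was -0.85 ± 0.082, adjusted p = 8e-13. Psme3 and Psme4 were higher with both agents than with LPS alone, by 0.19 ± 0.044 and 0.10 ± 0.043.

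The catalytic beta subunits parted here. Psmb5 held 161, 164, 155 and 157 CPM in WT with both agents, within the range of LPS alone (0.04 ± 0.043, adjusted p = 0.37). Psmb6 held 139, 143, 132 and 132 CPM, below every LPS library (-0.60 ± 0.051, adjusted p = 5.1e-15). Psmb7 held 85.5, 88.1, 87.2 and 83.1 CPM and was not called (-0.03 ± 0.045, adjusted p = 0.57). Psmb1, Psmb2 and Psmb3 were higher with both agents than with LPS alone, by 0.19 ± 0.037, 0.17 ± 0.039 and 0.25 ± 0.046. The immunoproteasome counterparts Psmb8 and Psmb9 changed by -0.66 ± 0.043 and -1.04 ± 0.054 and Psmb10, the counterpart of Psmb7, by -0.18 ± 0.044. The ratio of Psmb10 to Psmb7 counts was 1.97 ± 0.102 with LPS and 1.77 ± 0.0376 with both agents, and the ratio of Psmb8 to Psmb5 counts was 1.47 ± 0.0264 with LPS and 0.898 ± 0.0349 with both agents.

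Among the alpha subunits 5 of 8 were lower than with LPS alone and none higher, where 34.5% of all genes were lower and 34.6% higher. Psma5 held 110, 116, 135 and 124 CPM with LPS and 80.4, 86.2, 83.6 and 82.3 CPM with both agents, with no overlap (-0.54 ± 0.051, adjusted p = 1.9e-13). In the cap Psmd11 changed most, to 110, 108, 105 and 107 CPM (-0.54 ± 0.036, adjusted p = 6.2e-19), still above every control library. Psmc6 was the most changed ATPase, at 92.8, 102, 96.5 and 92.3 CPM (-0.31 ± 0.037, adjusted p = 1.8e-10), whereas Psmc1, Psmc3 and Psmc5 were higher by 0.29 ± 0.039, 0.18 ± 0.04 and 0.21 ± 0.045. Psmd6 and Psmd12, which LPS had barely moved, were higher by 0.42 ± 0.042 and 0.34 ± 0.042. Of the assembly factors Psmd5 changed most among those lowered, to 63.5, 62.7, 63.6 and 60.3 CPM (-0.50 ± 0.044, adjusted p = 1.8e-14), and Psmd10 held 74.8, 74.5, 68.5 and 69.9 CPM (-0.33 ± 0.052, adjusted p = 1.8e-07). Both stayed above all control libraries, and Psmg1 and Psmg2 were higher than with LPS alone, by 0.43 ± 0.11 and 0.44 ± 0.1, at 12.2 ± 0.738 and 11.6 ± 0.579 CPM.

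**Figure D3:**
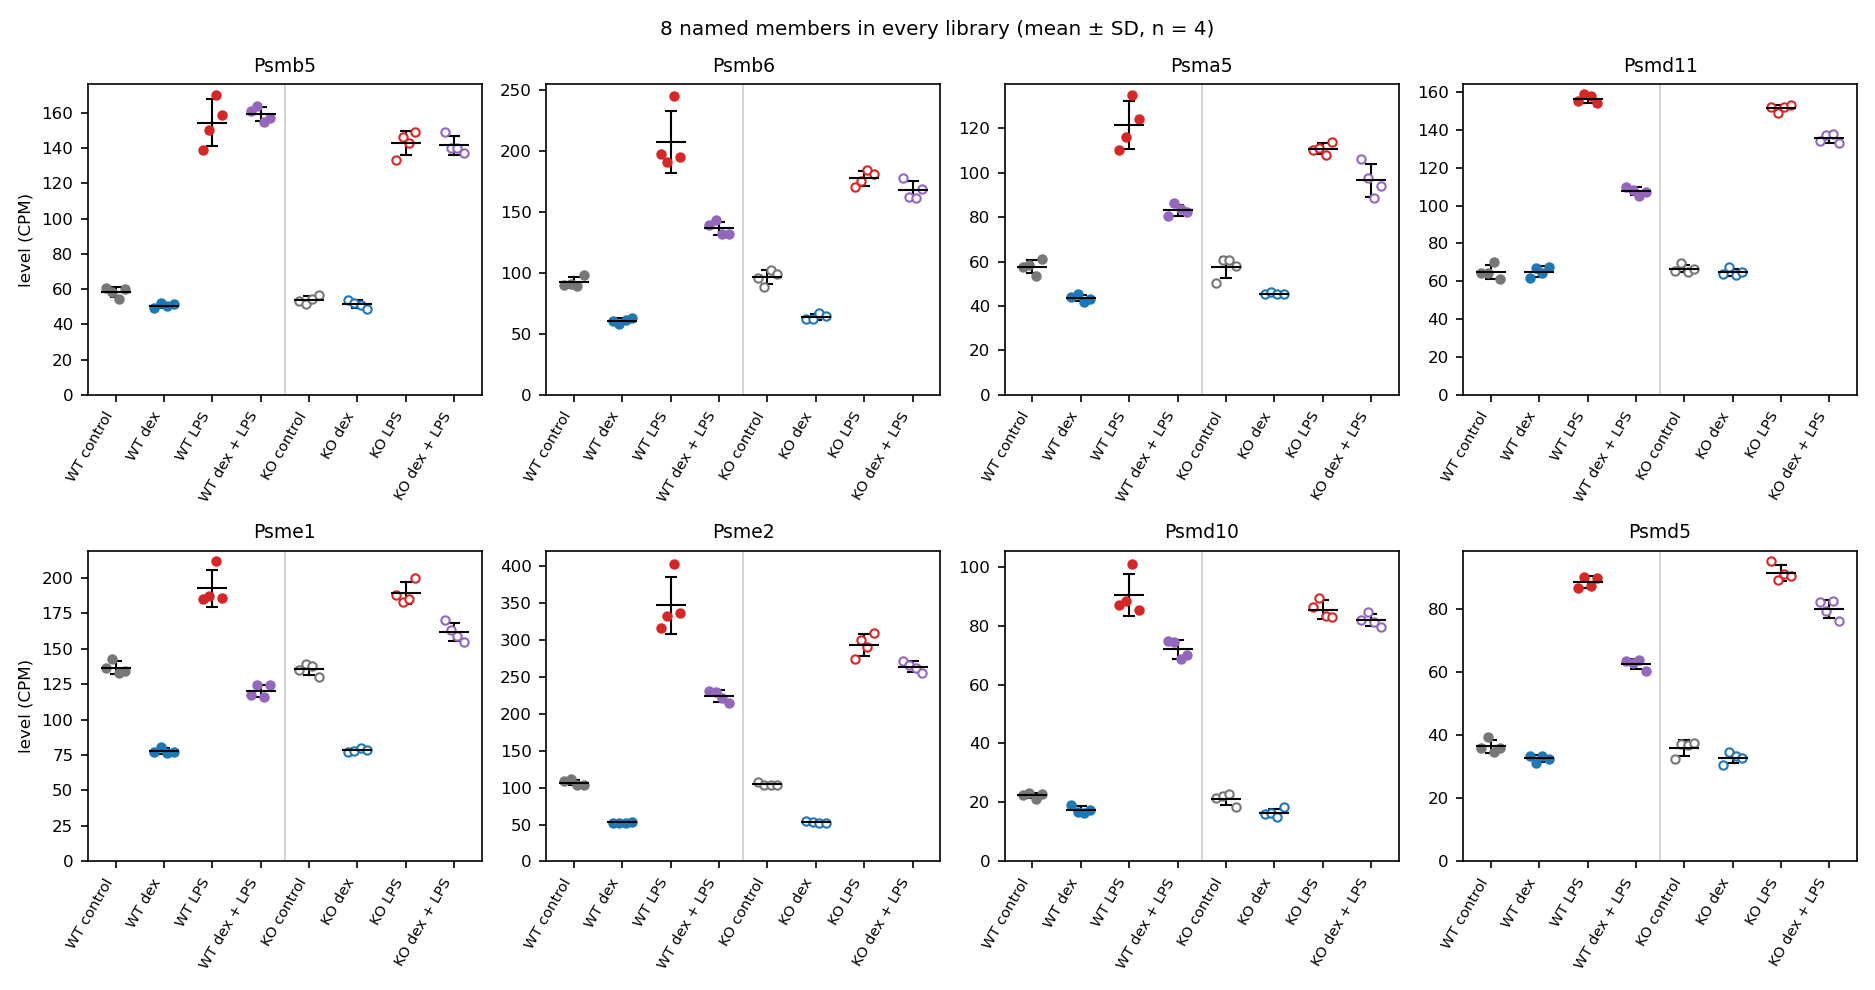
Level in CPM (y axis, from 0) of 8 members in every library of the 8 groups (x axis); filled points are WT, open points KO, bar and whiskers the mean and SD of 4 libraries. With dexamethasone plus LPS, Psmb5 averaged 159 CPM in WT, against 154 CPM with LPS, while the means were 136 (WT) and 168 (KO) CPM for Psmb6 and 120 and 162 CPM for Psme1.

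The last comparisons asked whether the genotype changes these responses. Without LPS few differences passed the test. In control edgeR and DESeq2 called 0 of 46 members, with 2 at an unadjusted p under 0.05 in edgeR and log2 differences from -0.12 to 0.15, where 0.541% of all genes were called, 0.243% higher and 0.298% lower. With dexamethasone 1 member was called, Psmd14, at 43.1 ± 2.29 CPM in KO and 37.9 ± 1.28 CPM in WT (0.19 ± 0.048, adjusted p = 0.041), where 0.901% of all genes were called. DESeq2 called 2 members there, and on the lane 3 libraries alone none was called, as also in 6 of 8 fits that left out 1 library. With LPS 3 members were lower in KO, Psme2 (-0.24 ± 0.043, adjusted p = 6.6e-05), Psmb6 (-0.22 ± 0.05, adjusted p = 0.0015) and Psmd8 (-0.11 ± 0.032), where 10.2% of all genes were called and 5.51% were lower. Without replicate 1 of WT with LPS 9 members were called. The LPS effect itself was smaller in KO for Psmb6 (-0.29 ± 0.073, adjusted p = 0.013) and Psme2 (-0.22 ± 0.064, adjusted p = 0.046), where 3.72% of all genes were called, 2.07% positive and 1.64% negative. Without replicate 3 of WT with LPS the Psmb6 difference was -0.20 ± 0.057 (edgeR adjusted p = 0.033) and the Psme2 difference -0.14 ± 0.049 (edgeR adjusted p = 0.13), so that the Psme2 call was lost. With a lane term none of these differences was called. In that fit 112 of all 14667 genes were called for KO against WT with LPS and 113 for the difference of the LPS effect. The lane term rests on 1 KO library without LPS in lane 2.

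With dexamethasone plus LPS the genotypes differed in 26 members, 15 higher and 11 lower in KO. Of all genes 56.4% were called, 28.5% higher and 27.9% lower. The split depended on the scaling, with 12 higher and 13 lower under RLE size factors or DESeq2 and 11 and 14 without normalization. With a lane term 13 members were called, 7 higher and 6 lower, where 4834 of all 14667 genes were called, 2448 higher and 2386 lower. In KO Psme1 held 170, 163, 159 and 155 CPM, above all 4 WT libraries (0.43 ± 0.039, adjusted p = 2.2e-13). Psmf1, Psmd5 and Psmd11 were also higher in KO, by 0.36 ± 0.059, 0.35 ± 0.044 and 0.33 ± 0.036. Psmg1 and Psmg2 were lower in KO, with log2 differences of -0.41 ± 0.11 and -0.33 ± 0.1, at 9.16 ± 1.59 and 9.16 ± 0.73 CPM.

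Fewer members were called for dexamethasone under LPS in KO. There 5 members were higher and 8 lower than with LPS alone, where 38.1% of all genes were called, 20.8% higher and 17.3% lower. RLE size factors gave 3 and 12 members, beside 2664 of all genes higher and 3005 lower. Within each genotype these libraries shared a lane. The difference between the genotypes in this effect was called for 22 members, 15 positive and 7 negative, where 45.4% of all genes were called, 23.9% positive and 21.5% negative. Without normalization 11 were positive and 12 negative. With no choice by a call, 42 of the 46 members (91.3%) had a smaller absolute change in KO than in WT, against 12326 of all 14427 genes tested (85.4%). Among those called in KO it was all 13 members and 5184 of 5499 genes (94.3%), a choice that favours the larger change in KO. Among those called in WT, where the choice works the other way, it was all 35 members and 9820 of 9978 genes (98.4%). Fkbp5 and Tsc22d3, which the glucocorticoid receptor is known to induce directly, were also lower in KO with both agents, at 262 ± 29.3 against 681 ± 12.1 CPM and at 59.8 ± 6.16 against 139 ± 13.6 CPM. With dexamethasone alone they stood at 836 ± 24.6 against 878 ± 12.8 CPM and at 432 ± 18.5 against 473 ± 15 CPM, and neither difference was called (edgeR adjusted p = 0.68 and 0.37). Their part in the result was not tested.

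Psmb6 had the largest difference between the genotypes in this effect with all libraries in the fit. In KO this gene held 170, 175, 184 and 181 CPM with LPS and 178, 162, 161 and 169 CPM with both agents, and these overlapped (-0.08 ± 0.05, edgeR adjusted p = 0.22). The KO minus WT difference was 0.52 ± 0.071, edgeR adjusted p = 2.4e-08. It uses WT with LPS, where replicate 3 held 245 CPM and the others 191 to 197 CPM, and its rank without that library is not given here. That replicate was also the highest of its group for Psme2 and Psme1. Psme2 held 274, 300, 291 and 309 CPM with LPS and 272, 266, 262 and 255 CPM with both agents in KO (-0.15 ± 0.044), a difference from WT of 0.48 ± 0.062, adjusted p = 5.4e-09. Psme1 changed by -0.22 ± 0.039 in KO, a difference of 0.45 ± 0.055, adjusted p = 1.3e-09. The differences for Psmf1 and Psmd11 were 0.45 ± 0.081 and 0.38 ± 0.05, and Psmd11 held 152, 149, 152 and 153 CPM with LPS and 134, 137, 138 and 133 CPM with both agents in KO. Psmg1 had a difference of the other sign (-0.41 ± 0.15, adjusted p = 0.025), at levels of about 9 CPM in KO with and without dexamethasone. Leaving out replicate 1 of WT with LPS gave -0.33 ± 0.16 with an adjusted p of 0.084 for Psmg1, so that call depends on single libraries. Psmb5 and Psmb7 showed no called difference (-0.05 ± 0.061 and 0.00 ± 0.064).

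**Figure D4:**
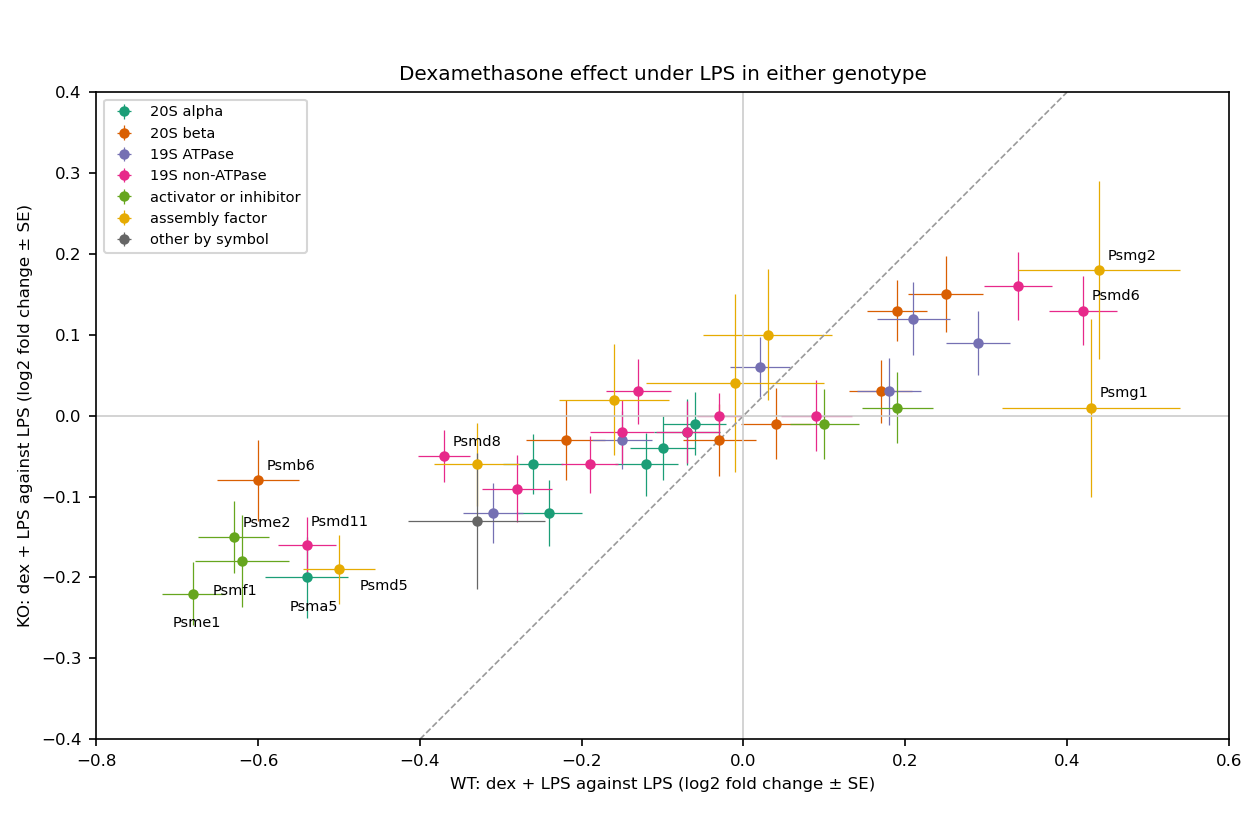
Log2 fold change of dexamethasone plus LPS against LPS in WT (x axis) and KO (y axis), with SE, for 44 of the 46 members, coloured by class; Psma8 and Psmc3ip, at about 1 CPM, are not drawn and the dashed line marks equal change. Psmb6 lay at -0.60 in WT and -0.08 in KO and Psme1 at -0.68 and -0.22, and the members called in WT lay nearer to 0 in KO.

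Other genes of the same system were counted by list, and since 75.7% of all genes were called with LPS in WT (37.4% higher, 38.3% lower) and 69.2% with dexamethasone under LPS, counts near these shares say nothing particular of a list. Of 10 genes of the NRF1 pathway, 6 rose and 4 fell with LPS in WT, with a median of 0.28. Nfe2l1 itself went from 188 to 522 CPM (1.48 ± 0.039), and its small Maf partners Mafg and Maff changed by 1.40 ± 0.035 and 5.28 ± 0.12. With dexamethasone plus LPS against LPS 6 rose and 4 fell, the smallest adjusted p being for Ddi2 (0.56 ± 0.041), the protease that activates NRF1, for Vcp (0.35 ± 0.034), the ATPase that extracts it from the membrane, and for Nfe2l2 (0.29 ± 0.029), the gene of NRF2. Ddi2 and Nfe2l2 had fallen with LPS, from 178 ± 6.22 to 90.2 ± 5.81 CPM and from 423 ± 3.12 to 245 ± 3.7 CPM, and stood below control with both agents, at 133 ± 3.43 and 300 ± 3.68 CPM. Of 10 proteasome parts outside the symbol rule, 5 rose and 3 fell with LPS (75.7% of all genes called), with a median of 0.14. Uchl5 fell, holding 21.8 to 26.8 CPM in WT control and 12.3 to 15 CPM with LPS. Sem1 overlapped, at 77.9 to 88.5 and 75.1 to 95.7 CPM, and Adrm1 rose, at 58 to 59.9 and 85.5 to 99.3 CPM. Ecpas, a proteasome adaptor also called ECM29, changed by 1.21 ± 0.043, Pomp, the maturation factor of the core, by 0.80 ± 0.044 and Txnl1, a thioredoxin on the cap, by 0.67 ± 0.042. Dexamethasone under LPS changed Ecpas by -0.81 ± 0.042, Pomp by -0.57 ± 0.043 and Usp14, a deubiquitinase on the cap, by 0.53 ± 0.051, with 4 higher and 4 lower in all (69.2% of all genes called) and a median of -0.02.

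Of 7 ubiquitin and E1 genes 4 rose and 1 fell with LPS in WT, where 75.7% of all genes were called, with a median of 0.55. The polyubiquitin gene Ubb changed by 1.07 ± 0.034 and Uba1, the main ubiquitin-activating enzyme, by 0.70 ± 0.032. With dexamethasone added Ubb changed by -0.73 ± 0.034 and Uba7, the activating enzyme of the ubiquitin-like ISG15, by -0.81 ± 0.04. Of 7 shuttle factors, which carry ubiquitinated proteins to the proteasome or to autophagy, 4 rose and 3 fell with LPS, again beside 37.4% of all genes higher and 38.3% lower, with a median of 0.50. Sqstm1, the autophagy receptor p62, went from 744 to 3190 CPM (2.10 ± 0.035) and to 961 CPM with both agents (-1.73 ± 0.035). Rad23b changed by 0.87 ± 0.033 with LPS and -0.40 ± 0.032 with dexamethasone added.

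Across the 8 groups 45 of the 46 members differed in edgeR, where 92.4% of all genes were called, and Psma8 was the exception (edgeR adjusted p = 0.2). Psmd2, the cap scaffold, was among the abundant members with little response to dexamethasone under LPS, at 245 ± 8.01 CPM in WT control, 226 ± 0.76 CPM with dexamethasone, 417 ± 3.54 CPM with LPS and 407 ± 8.08 CPM with both. Among the other alpha subunits, in WT Psma2 stood at 81.1 ± 4.83, 69.2 ± 1.72, 130 ± 1.99 and 124 ± 2.05 CPM in the same order, and Psma7 at 80.9 ± 2.42, 72.8 ± 0.622, 147 ± 9.67 and 124 ± 4.47 CPM. Psmc4, an ATPase, had the order 63.6 ± 0.533, 53.7 ± 1.05, 95.4 ± 4.66 and 96.4 ± 2.36 CPM, with the last 2 not differing beyond their spread. Psmd3, a lid subunit, stood at 81.9 ± 1.23, 79.5 ± 3.8, 151 ± 8.4 and 143 ± 2.05 CPM, where neither dexamethasone comparison was called in either genotype.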

How the data were processed

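Counts of read pairs per gene were deposited for all 32 libraries in 1 table. The authors made these counts with featureCounts 2.0.0, per the file headers, from paired reads without strand, over GENCODE vM32 exons summed by gene. STAR (its version is not given in the sources used here) is listed in the submitters' processing notes, as are GRCm38 and mm10, although the vM32 annotation is of a newer assembly. Gene positions given here are the table's, and promoter positions are those of GRCm38.p6. Pairs over exons of 2 genes are not assigned under these settings, and exons of 14 members overlap another gene. Of 56953 identifiers 52029 were matched to a symbol, and 0.846% of counts lay in the rest.

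Counts were analysed with edgeR 4.0.16 in R 4.3.3. The default filterByExpr left 14427 genes, TMM scaled the libraries, and 1 quasi-likelihood fit of the 8 group means (24 residual degrees of freedom, biological coefficient of variation 4.36%) gave 17 contrasts, two-sided, with Benjamini-Hochberg adjustment over all genes tested and calls at an adjusted p under 0.05. The SE is the log2 fold change divided by the root of F. CPM uses TMM-scaled totals, and CPM per kb divides by the deposited exon length, a column of the authors' table. Library totals set the precision through counting error, and p-values over 4 libraries a group rest on the pooled spread.

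The members, classes and lists were chosen with earlier results of these data known. Every member could be named with group means; values per library were given for the most changed called member of each class in WT with LPS and in WT with dexamethasone plus LPS, and for Psme1, Psme2, Psmb5, Psmb6 and Psmb7. In genotype comparisons the 6 largest called differences were named, and of other lists up to 3 genes with the smallest adjusted p. Adrm1, Sem1 and Uchl5 were named beyond this rule. Some genes of these lists are not reported here. The results were recomputed with DESeq2 1.42.0, with RLE size factors or unscaled totals, without the filter, with a replicate block, with a lane term (leaving out the merged library), on lane 3 alone, and without each library in turn. By the table's column names 22 libraries came from lane 3, 9 from lane 2 and 1 from a merged file. All 48 pairs of replicates differed by more than sampling noise (chi-square per degree of freedom 1.99 to 16.5, median 2.81).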

Additional observations from a re-analysis of the deposited data

Results flagged for a closer look

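In 7 of 144 sets of 4 libraries, over the named genes and class sums in each group, the highest or lowest library lay far from the others by Dixon's criterion at the 95% level, and chance alone marks about 1 in 20. In WT with LPS this was replicate 3, with Psmb6 at 245 CPM (others 191 to 197) and Psme1 at 212 CPM (others 185 to 187). Psme2 in WT with dexamethasone was at 53.6 CPM in replicate 4 (others 52.4 to 52.6) and Psmd5 in KO control at 32.3 CPM in replicate 1, the merged library (others 36.7 to 37.5). The summed 19S ATPases were at 688 CPM in replicate 4 of KO with LPS (others 657 to 659), and the summed activators and inhibitor at 470 CPM in replicate 2 of WT control (others 448 to 450) and at 443 CPM in replicate 4 of KO control (others 451 to 452).

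The LPS effect differed between the genotypes for Psmb6, by -0.29 on the log2 scale (adjusted p = 0.013), and for Psme2, by -0.22 (adjusted p = 0.046), both edgeR tests of the difference itself. Without replicate 3 of WT with LPS the edgeR adjusted p was 0.033 for Psmb6 and 0.13 for Psme2, so that the Psme2 call was lost. With a lane term neither was called. The dexamethasone effect under LPS differed, KO minus WT, by 0.52 for Psmb6 (adjusted p = 2.4e-08), 0.48 for Psme2 (adjusted p = 5.4e-09), 0.45 for Psme1 (adjusted p = 1.3e-09), 0.45 for Psmf1 (adjusted p = 9.3e-06), 0.38 for Psmd11 (adjusted p = 9e-09) and -0.41 for Psmg1 (adjusted p = 0.025). Leaving out replicate 1 of WT with LPS gave an edgeR adjusted p of 0.084 for Psmg1, so that its call was lost. The lane and the genotype of the libraries with LPS coincide, and lane was not tested as a cause.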

How the results depend on the processing

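The total of members called, higher and lower together, for LPS, dexamethasone and both agents within a genotype stayed within 1.5 times the first count under every alternative run. KO against WT with dexamethasone had 1 member called, 2 without normalization or with DESeq2, and 0 with no filter on low counts, a lane term or lane 3 alone. KO against WT with LPS had 3 members called and 0 with a lane term, and with both agents 26 and 13 with a lane term. With that term 112 and 4834 of all 14667 genes were called in these comparisons. The KO minus WT difference of the LPS effect had 2, then 1 with RLE size factors or no normalization and 0 with a lane term. The lane term, which leaves out the merged KO control library, rests on 1 KO library without LPS in lane 2; the cause of these changes was not tested. Leaving out single libraries gave 38 to 40 members for LPS in WT, 37 to 39 in KO, 32 to 36 and 26 to 29 for dexamethasone, 32 to 36 and 10 to 12 for dexamethasone under LPS, 40 to 42 and 40 to 41 for both agents against control, 23 to 29 and 16 to 24 for the difference of the dexamethasone effect with and without LPS, 0 for KO against WT in control, 0 to 1 with dexamethasone, 2 to 9 with LPS (9 without replicate 1 and 2 without replicate 3 of WT with LPS), 24 to 27 with both, 1 to 3 for the KO minus WT difference of the LPS effect, 0 for that of the dexamethasone effect and 18 to 22 for that of the dexamethasone effect under LPS. No named gene changed direction. Of the 94 called values for named genes, 8 lost the call with a lane term, 5 without normalization and 3 without the filter. With RLE size factors and with DESeq2 1 each lost the call, and with a replicate block 0. The run on lane 3 alone held 1 of these values, and it lost the call. In the fits that left out single libraries 30 values lost the call and 786 kept it. A replicate block gave 39 members for LPS in WT, 35 for dexamethasone under LPS in WT and 27 for KO against WT with both agents, and it changed no count by more than 1.5 times; same-numbered libraries correlated at -0.03 to 0.06 over 112 pairs, none over 0.1, and 90 of 224 best matches had the same number, where chance gives 1 in 4. Same-numbered libraries may share something, but the matches count each pair of libraries from both sides and were not tested. No label links these libraries, and the numbers were not used as pairs. Depth limits Psma8, Psmc3ip and Psmg1 to Psmg4, at about 1 to 13 CPM, most.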
